A study of Rattus norvegicus with 10 samples.

Results

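The transcripts of 10 genes of bile acid synthesis, sensing and transport were followed in liver, in rats fed HMB and in control rats. HMB is the sunscreen ingredient oxybenzone. The genes were Cyp7a1, Cyp8b1, Cyp27a1, Cyp7b1, Akr1d1, Baat, Nr1h4, Nr0b2, Slc10a1 and Abcb11, and their probe sets were found by gene symbol. All 10 were found among 14216 genes with a probe set of their own, on 11 of the 31042 probe sets tested, since Akr1d1 had 2 probe sets and each other gene had 1. The HMB group was 5 Harlan Sprague Dawley rats whose feed held 10000 ppm HMB over 13 weeks, and the control group was 5 rats of the same strain at 0 ppm. Both groups ate the same base diet and were housed 5 per cage, so a group may have been a single cage, and cage and HMB then cannot be told apart. Liver RNA of each rat was hybridised to its own Affymetrix Rat Genome expression array. Sex, age and the time of day of tissue collection were not given in the labels. The dose label of HMB rat 1 read 0 ppm, against its title and chemical label. It counted as an HMB rat here, and its values lay inside the range of the controls for 9 of the 11 probe sets. No such count is given over all probe sets or for the other HMB rats, so this one does not bear on the label.

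Hepatocytes make bile acids from cholesterol. In the classic pathway Cyp7a1 takes the first and rate-limiting step and Cyp8b1 directs the product towards cholic acid, while Cyp27a1 and Cyp7b1 serve the alternative pathway. Akr1d1 reduces the sterol ring, and Baat joins the finished bile acid to taurine or glycine. Bile acids return from the blood through the uptake transporter Slc10a1 (NTCP) and leave into bile through the export pump Abcb11 (BSEP). They bind the nuclear receptor Nr1h4 (FXR), which activates Nr0b2 (SHP), a receptor without a DNA-binding domain that represses Cyp7a1 and Cyp8b1, and which also activates Abcb11. In rodents Cyp7a1 transcript levels follow a daily rhythm.

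The bases before the annotated transcription start were in the RefSeq promoter table for 5 of the 10 genes, namely Cyp8b1, Cyp27a1, Baat, Nr0b2 and Slc10a1. Cyp7a1, Cyp7b1, Akr1d1, Nr1h4 and Abcb11 were not in it. Sequences of 3 genes are shown, 250 bases each on the gene's own strand in build GRCr8, because they stand for the widest spread between rats (Nr0b2), a pair of genes that varied together (Cyp8b1, with Cyp7a1) and the narrowest spread (Slc10a1). The Nr0b2 window is chr5:151062910-151063159 on the plus strand, the Cyp8b1 window chr8:130457593-130457842 on the minus strand and the Slc10a1 window chr6:106357945-106358194 on the minus strand. Capitals mark the nuclear receptor half-site AGGTCA on either strand.
Nr0b2: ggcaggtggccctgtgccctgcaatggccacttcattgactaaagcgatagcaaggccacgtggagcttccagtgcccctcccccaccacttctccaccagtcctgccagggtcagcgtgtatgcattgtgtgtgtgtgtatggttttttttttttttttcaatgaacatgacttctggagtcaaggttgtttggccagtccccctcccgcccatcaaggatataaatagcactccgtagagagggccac
Cyp8b1: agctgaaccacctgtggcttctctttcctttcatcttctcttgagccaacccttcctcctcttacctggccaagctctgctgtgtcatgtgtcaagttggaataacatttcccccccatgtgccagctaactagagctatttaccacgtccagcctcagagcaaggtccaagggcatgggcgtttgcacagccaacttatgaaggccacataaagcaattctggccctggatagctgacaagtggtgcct
Slc10a1: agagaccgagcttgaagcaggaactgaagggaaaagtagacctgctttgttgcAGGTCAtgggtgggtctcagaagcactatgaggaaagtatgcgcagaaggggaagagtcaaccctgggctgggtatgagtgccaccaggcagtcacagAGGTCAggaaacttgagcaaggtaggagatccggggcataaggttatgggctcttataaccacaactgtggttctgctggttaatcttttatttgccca
The half-site occurred at 2 places in the Slc10a1 window, with first bases at -197 and -99 from the start site. It also occurred at 2 places in the window of Cyp27a1, at -236 and -115. The first of these lay inside a match to CAAGGTCA, the monomer site of the Nr5a2 class, so the 2 motifs overlap there. Neither motif was in the windows of Cyp8b1, Baat or Nr0b2. The inverted repeat (IR-1) and the direct repeat (DR-1) of the half-site with 1 base between were in none of the 5 windows. Among 33469 windows of the same length in the table, 14.1% held AGGTCA, 1.33% held CAAGGTCA, 0.0269% held IR-1 and 0.0508% held DR-1. At such low shares, the absence of either repeat from 5 windows tells little. The search does not bear on sites that differ from these motifs by a base or lie further upstream.

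The comparison asked whether these transcripts differed between rats fed HMB and rats fed none. No probe set of the 10 genes passed the test (0 of 11, limma, Benjamini-Hochberg adjusted p under 0.05 over all 31042 probe sets), where 1.70% of all probe sets tested passed. At an unadjusted p under 0.05 there were 2 of the 11, against 24.1% of all probe sets. The smallest adjusted p was 0.0674, for 1 of the 2 Akr1d1 probe sets. The HMB and control values did not overlap for 1 of 11, Baat, with 5.77% of all probe sets in that state (2.93% with HMB below and 2.84% with HMB above). The median log2 difference, HMB minus control, was 0.11 over the 11 probe sets and 0.01 over all probe sets. It was above 0 in 8 of the 11 and in 16263 of the 31042. In whole liver, fewer cells of a type and less RNA per cell cannot be told apart.

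**Figure D1:**
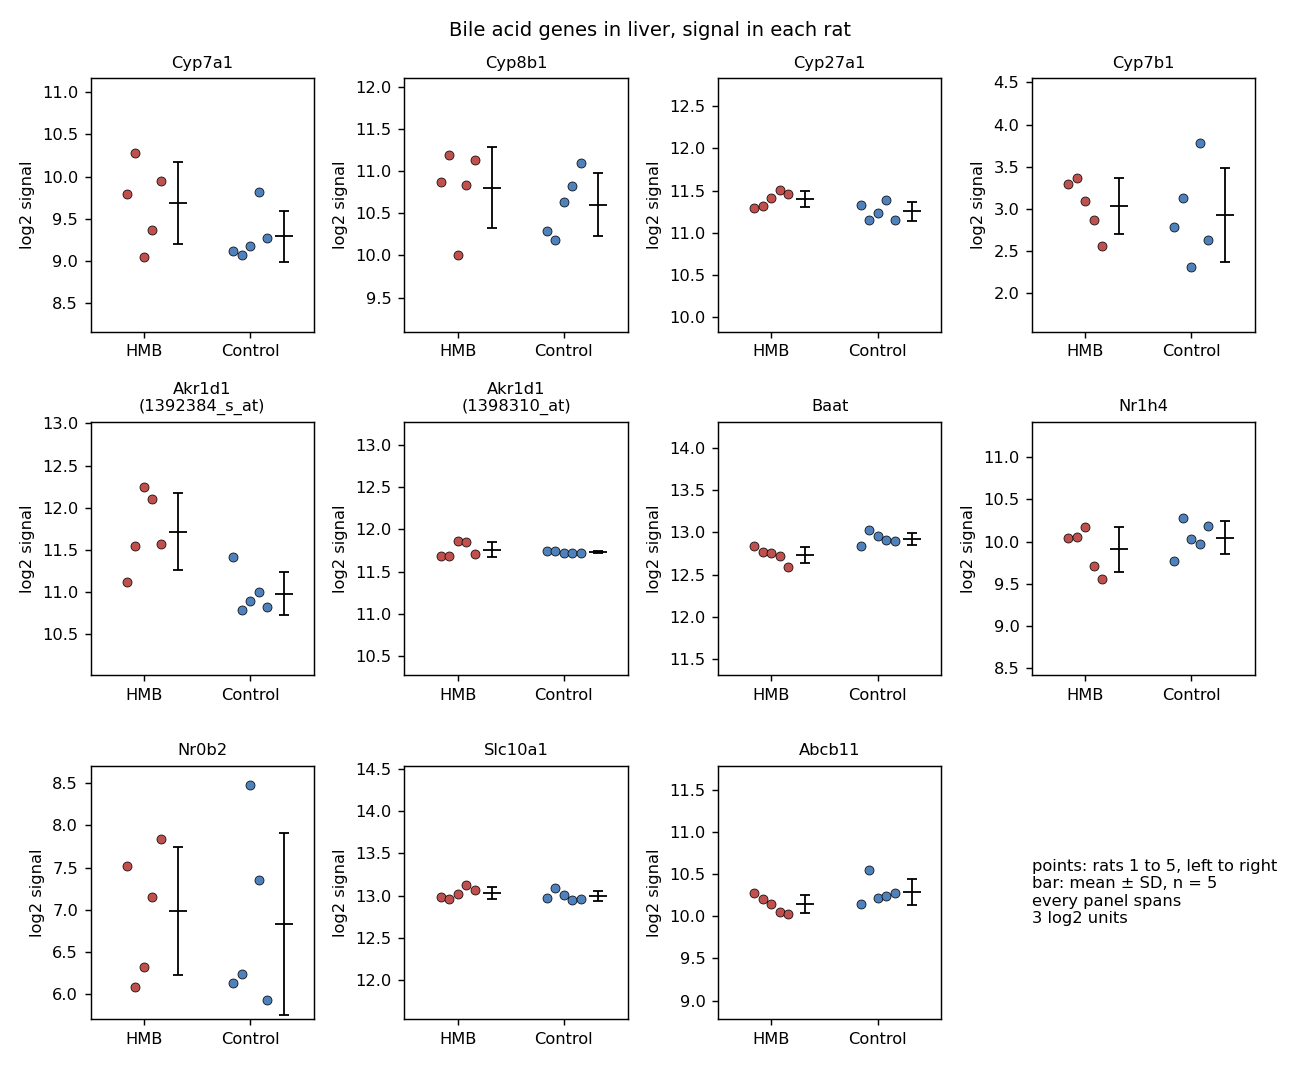
Log2 signal of each of the 11 probe sets in each rat (points, rats 1 to 5 from left to right within a group), with the HMB group left of the control group and the mean ± SD beside the points. Every panel spans the same number of log2 units. Nr0b2 has the widest scatter in both groups, Slc10a1 and Akr1d1 _at the narrowest, and Baat is the panel in which the groups do not overlap.

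Of the enzymes of the classic pathway, Cyp7a1 (cholesterol hydroxylase) had log2 signals of 9.79, 10.28, 9.05, 9.37 and 9.94 in HMB rats 1 to 5, against 9.12, 9.08, 9.18, 9.82 and 9.27 in control rats 1 to 5. Rats HMB 2 and HMB 5 lay above all controls and HMB 3 lay below all controls, so the HMB group reached further both ways. The mean was 9.69 ± 0.48 in HMB rats and 9.30 ± 0.30 in controls (SD, n = 5 each), a log2 difference of 0.39 ± 0.21 (SE, limma adjusted p = 0.268). By exact permutation of the rats between groups the two-sided p was 0.167. On the linear scale the difference was 1.31-fold with a 95% interval of 0.957 to 1.80, which allows a rise of up to 1.80-fold. With HMB rats 1 and 2 left out the log2 difference was 0.16, and with HMB rats 3 to 5 left out it was 0.74. Neither passed the test.

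Cyp8b1, the sterol hydroxylase that sets the share of cholic acid, had log2 signals of 10.87, 11.19, 10.002, 10.83 and 11.13 in HMB rats 1 to 5, against 10.29, 10.18, 10.63, 10.82 and 11.09 in controls 1 to 5. The same 3 HMB rats stood outside the control range as for Cyp7a1, HMB 2 and HMB 5 above it and HMB 3 below it. The means were 10.81 ± 0.48 in HMB rats and 10.60 ± 0.38 in controls, 0.20 ± 0.22 apart (SE, limma adjusted p = 0.599), with an interval of 0.824 to 1.61 for the fold. With 1 rat left out the difference lay between 0.0966 (without control 2) and 0.40 (without HMB 3), and it did not pass in any of these settings.

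In the alternative pathway, Cyp27a1, the mitochondrial sterol side-chain hydroxylase, had log2 signals of 11.29, 11.32, 11.42, 11.51 and 11.46 in HMB rats, against 11.33, 11.15, 11.24, 11.39 and 11.15 in control rats. Rats HMB 3, HMB 4 and HMB 5 lay above all 5 controls, while HMB 1 and HMB 2 lay within their range. The log2 difference was 0.15 ± 0.08 (SE, limma adjusted p = 0.284), and the 95% interval of the fold ended at 1.25. HMB rats 3 to 5 also had the highest 3' minus 5' signal of the GAPDH control probe sets, and over the 10 arrays that measure had a Pearson r of 0.70 with Cyp27a1. With it as a covariate the Cyp27a1 difference was 0.11, and its part in the values was not tested beyond that. Cyp7b1, the oxysterol hydroxylase that follows Cyp27a1 in that pathway, had log2 signals from 2.56 to 3.37 in HMB rats and from 2.32 to 3.78 in controls, and all HMB values lay inside the control range. Its mean signal over all arrays was near the level that 25.5% of probe sets did not exceed, and no detection calls were used here, so a transcript above background cannot be claimed for it. The log2 difference was 0.11 ± 0.24 (limma adjusted p = 0.805).

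Akr1d1, the steroid 5β-reductase that both pathways share, was measured by 2 probe sets that gave different results. The probe set with the ending _s_at had log2 signals of 11.12, 11.54, 12.24, 12.10 and 11.57 in HMB rats 1 to 5, against 11.42, 10.78, 10.89, 10.999 and 10.82 in controls 1 to 5. HMB rats 2 to 5 lay above all controls, and HMB 1 lay below control 1. The log2 difference of 0.73 ± 0.19 (SE, n = 5 each, limma adjusted p = 0.0674) had a 95% interval of 1.24 to 2.23 for the fold before adjustment over probe sets, and the exact permutation p was 0.0159. The probe set with the ending _at had 11.68, 11.69, 11.86, 11.86 and 11.71 in the same HMB rats, against 11.74, 11.74, 11.73, 11.72 and 11.72 in the controls. There the controls lay within 0.0242 of each other, and HMB 3 and HMB 4 stood above them while HMB 1, HMB 2 and HMB 5 stood below. Its log2 difference was 0.03 ± 0.07 (limma adjusted p = 0.816), and the interval of the fold, 0.918 to 1.14, lies wholly below that of the first probe set.

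The first Akr1d1 probe set minus the second, taken on each array, was -0.04 ± 0.37 in HMB rats and -0.75 ± 0.26 in controls (SD, n = 5 each), 0.70 apart (exact two-sided permutation p = 0.0159). This comparison was chosen after the values were seen. Across the 10 arrays the 2 probe sets had a Pearson r of 0.73. The GAPDH 3' minus 5' signal had a Pearson r of 0.61 with the first and 0.73 with the second (n = 10). With it as a covariate the log2 differences were 0.63 (limma adjusted p = 0.0783) and 0.0115 (adjusted p = 0.935). An ending of _s_at marks a probe set whose probes match more than 1 transcript, and which transcripts these are was not examined here. The call for the _s_at probe set turned on single animals. It passed without HMB 1 (log2 difference 0.88, limma adjusted p = 0.0305), without control 1 (0.84, adjusted p = 0.0354), with HMB 1 counted as a control (0.86, adjusted p = 0.0364) and without HMB 1 and 2 (0.99, adjusted p = 0.0205). Of all probe sets 997, 1653, 532 and 2094 passed in these settings, in that order, against 528 in the main fit. Without HMB rats 3 to 5 the Akr1d1 _s_at log2 difference was 0.35 (adjusted p = 0.539), and with the poly-A control signal as a covariate it was 0.58 (adjusted p = 0.422). In each of these last 2 settings 0 of all probe sets passed.

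Baat, which conjugates bile acids for secretion, had log2 signals of 12.83, 12.77, 12.75, 12.72 and 12.59 in HMB rats 1 to 5, against 12.84, 13.03, 12.96, 12.91 and 12.90 in controls 1 to 5. All 5 HMB rats lay below all 5 controls, although HMB 1 and control 1 were almost level. The means of 12.73 ± 0.09 in HMB rats and 12.93 ± 0.07 in controls (SD, n = 5 each) differed by -0.19 ± 0.08 (SE, limma adjusted p = 0.147). The exact two-sided permutation p of 0.00794 is the smallest that 5 rats against 5 allow, and it carries no adjustment for the other probe sets. The fold was 0.874, with a 95% interval of 0.780 to 0.978. Over the 10 arrays Baat had a Pearson r of -0.73 with the poly-A control signal, and with that signal as a covariate the difference was -0.14 (adjusted p = 0.613). The poly-A signal itself was higher in HMB rats (-1.73 against -2.04 in controls). Baat did not pass with or without that covariate, and with it 0 of all probe sets passed.

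**Figure D2:**
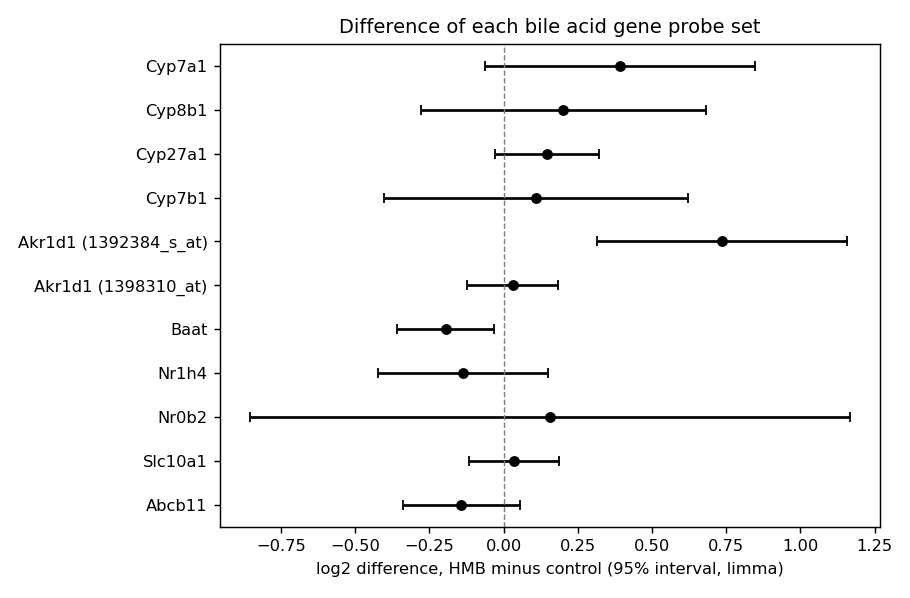
Log2 difference, HMB minus control, of each probe set (points) with its 95% interval from limma (bars, not adjusted over probe sets). The intervals of Akr1d1 _s_at and Baat leave out 0, those of the 2 Akr1d1 probe sets do not meet, and the interval of Nr0b2 is the widest.

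Among the receptors, Nr1h4 (FXR) had log2 signals of 10.05, 10.05, 10.18, 9.71 and 9.55 in HMB rats 1 to 5, against 9.77, 10.28, 10.03, 9.97 and 10.18 in controls. HMB 4 and HMB 5 lay below all controls and the other 3 lay within their range. The log2 difference was -0.14 ± 0.13 (SE, limma adjusted p = 0.539), with an interval of 0.746 to 1.11 for the fold. Nr0b2 (SHP), the repressor that FXR induces, had 7.52, 6.08, 6.33, 7.16 and 7.84 in HMB rats, against 6.13, 6.24, 8.48, 7.36 and 5.94 in controls. All HMB values lay inside the control range, which spanned 2.54 log2 units from control 5 to control 3. The log2 difference of 0.16 ± 0.47 (limma adjusted p = 0.861) had a 95% interval of 0.553 to 2.24 for the fold. With this spread the interval holds both a fall to 0.553-fold and a rise to 2.24-fold. Its sign changed in 6 of 22 alternative settings, among them those without control 1, without control 5 and without HMB 5.

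Of the transporters, Slc10a1 (NTCP), which takes bile acids up from the blood, had log2 signals of 12.99, 12.96, 13.01, 13.12 and 13.07 in HMB rats, against 12.97, 13.09, 13.00, 12.95 and 12.96 in controls. The groups overlapped, with HMB 4 alone above all controls. The difference was 0.03 ± 0.07 (SE, limma adjusted p = 0.791), and the interval of 0.921 to 1.14 for the fold allows little change in array signal either way. Abcb11 (BSEP), which exports bile acids into the canaliculus, had 10.28, 10.21, 10.15, 10.05 and 10.02 in HMB rats, against 10.15, 10.55, 10.22, 10.24 and 10.28 in controls. HMB 4 and HMB 5 lay below all controls, as they did for Nr1h4. The difference was -0.14 ± 0.09 (limma adjusted p = 0.350), with an interval of 0.790 to 1.04 for the fold.

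The members differed widely in how much rats of the same group varied. Nr0b2 had a within-group SD of 0.930 log2 units, with 99.9% of all probe sets at or below it. Cyp7b1 (0.458), Cyp8b1 (0.429), Cyp7a1 (0.403) and Akr1d1 _s_at (0.370) lay between the percentiles 96.4 and 98.5. At the other end were Slc10a1 (0.0617), Akr1d1 _at (0.0638) and Baat (0.0818), at the percentiles 1.65, 1.88 and 5.03. Cyp27a1 lay at percentile 10.7, Abcb11 at 25.7 and Nr1h4 at 78.7, and the median over all probe sets was 0.172. By mean signal, Cyp7b1 lay at percentile 25.5, Nr0b2 at 77.4 and the other 9 at 94.6 or above, so spreads on both sides of the median occurred among bright probe sets. Slc10a1 and Baat were the brightest members, at signal percentiles 99.8 and 99.7. Apoc3 and Ttr, brighter still, had SDs at percentiles 0.0419 and 0.0902, while Cyp2c22, at signal percentile 99.5, had an SD at percentile 77.3. Whether a very high signal narrowed these spreads was not tested.

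**Figure D3:**
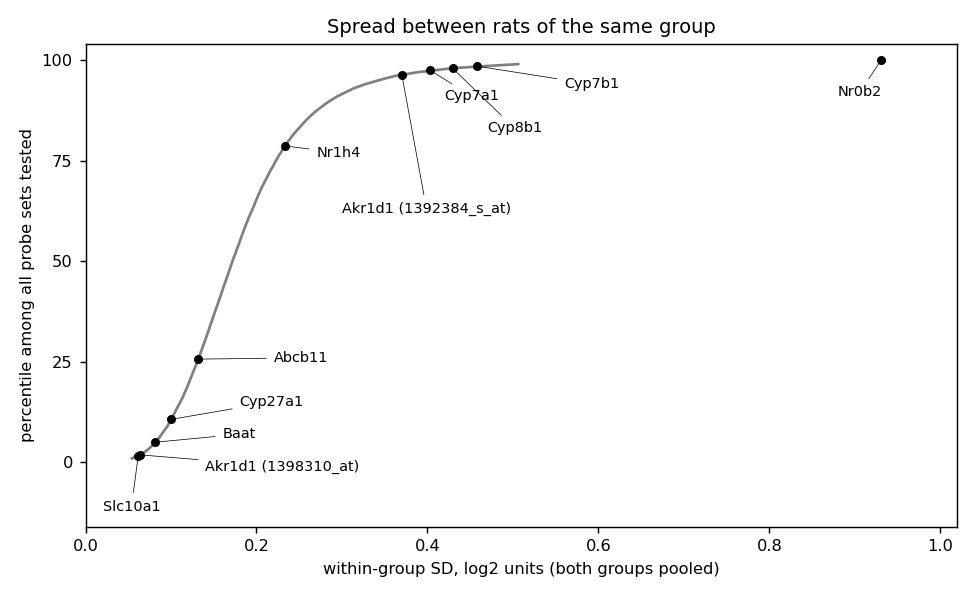
Within-group SD of the log2 signal (horizontal axis) against its percentile among all probe sets tested (vertical axis). The grey line runs over percentiles 1 to 99 of all probe sets and the points are the 11 bile acid gene probe sets. Slc10a1 and Akr1d1 _at sit at the low end, and Nr0b2 sits far to the right of the line's end.

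Across the 10 rats, 6 pairs linked by the feedback loop were compared. Cyp7a1 and Cyp8b1 varied together, with a Pearson r of 0.78 (n = 10, permutation p = 0.00874, adjusted p = 0.0262 over 6 pairs) and a Spearman rho of 0.89 (permutation p = 0.00103, adjusted p = 0.00618). The r of their deviations from the group means was 0.78 as well, so the relation was present within groups. Without HMB 2 and HMB 5, the 2 rats farthest from the median of Cyp7a1, r was 0.66 (n = 8, exact permutation p = 0.0804) and did not pass at that smaller n. Leaving out any 1 rat gave r between 0.74 and 0.90. Of 14215 other genes, 0.387% had a higher r with Cyp7a1 than Cyp8b1 had. Nr1h4 and Abcb11 had an r of 0.80 (n = 10, permutation p = 0.00420, adjusted p = 0.0252) and a rho of 0.76 (permutation p = 0.0150, adjusted p = 0.0450). Within groups that r was 0.79, and without HMB 4 and HMB 5 it was 0.63 (n = 8, exact permutation p = 0.116) and did not pass. Leaving out any 1 rat gave r between 0.74 and 0.90 here as well. Of the 14215 other genes 1.05% had a higher r with Nr1h4. The 3' minus 5' signal of GAPDH had an r of -0.46 for Nr1h4 and -0.68 for Abcb11 (n = 10), and the part of that measure in the relation was not tested.

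No relation of the repressor with its targets passed the test. Nr0b2 had an r of 0.18 with Cyp7a1 (n = 10, permutation p = 0.616, adjusted p = 0.616) and of 0.23 with Cyp8b1 (permutation p = 0.516, adjusted p = 0.616), and rho was 0.16 and -0.05 for these pairs. Control 3 had the highest Nr0b2 signal and a Cyp7a1 signal of 9.18, near the middle of its group. Nr1h4 with Nr0b2 gave an r of -0.41 (permutation p = 0.241, adjusted p = 0.482), and Cyp7a1 with Slc10a1 gave an r of -0.27 (permutation p = 0.450, adjusted p = 0.616).

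**Figure D4:**
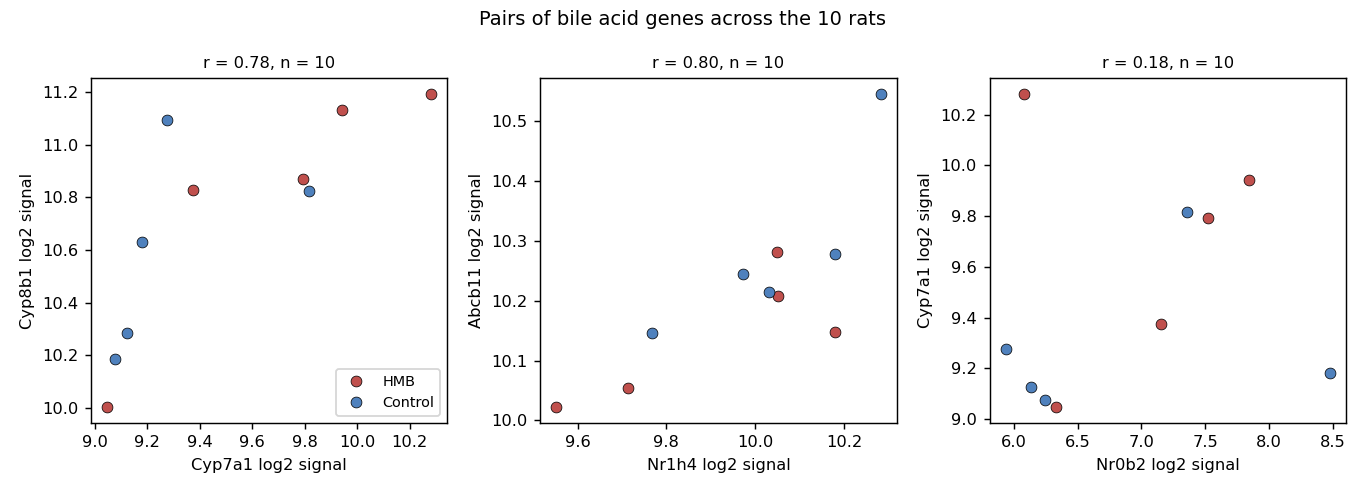
Log2 signals of 3 pairs of genes in the 10 rats (points, HMB and control rats in different colours), with Pearson r above each panel. Cyp7a1 with Cyp8b1 and Nr1h4 with Abcb11 run upward in both groups, and Nr0b2 with Cyp7a1 shows no such run.

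The genes whose values were most like those of Cyp7a1 over the 10 arrays were Gatd3a (r = 0.94), Cyp2t1 (r = 0.90), Gpt, an aminotransferase (r = 0.90), Susd2 (r = 0.90) and Trim36 (r = 0.88). For Cyp8b1 they were Dhrs7 (r = 0.90), Tstd1 (r = 0.89), LOC102547254 (r = 0.88), Slc7a2, a transporter of basic amino acids (r = 0.88) and Shc1, an adaptor protein (r = 0.88). These are the highest of 14215 values each and are given as a description. The arrays shared their groups and array measures.

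Other genes of the pathway were read from 4 lists that share some members and hold 82 different measured genes. Of these S1pr2, a receptor through which conjugated bile acids signal to hepatocytes, fell and 81 did not pass. The share called was 1.22%, no higher than the 1.70% of all probe sets. S1pr2 had log2 signals of 6.05, 5.57, 5.80, 5.40 and 5.49 in HMB rats, against 6.20, 6.70, 6.21, 6.54 and 6.80 in controls. All HMB rats lay below all controls, and the difference was -0.83 ± 0.15 (SE, n = 5 each, limma adjusted p = 0.0309). The call was lost in 10 of 22 settings, while the log2 difference stayed between -0.92 and -0.68 over the 22. It was lost with quantile normalization (-0.70, adjusted p = 0.0549), the poly-A covariate (-0.76, adjusted p = 0.2504) and without HMB rats 3 to 5 (-0.68, adjusted p = 0.338). The others were without HMB 2, 4 or 5 and without control 2, 3, 4 or 5. Of all 31042 probe sets, 0 passed with the poly-A covariate, without HMB rats 3 to 5, and without control 2, control 4, control 5 or HMB 4. Without control 3 or without HMB 5, 1 passed. The loss in those settings was therefore not particular to S1pr2. A second S1pr2 probe set, at a mean of 2.46 in HMB rats and 2.39 in controls, had a log2 difference of 0.07 (adjusted p = 0.730). Its mean signal was near the level that 9.92% of probe sets did not exceed, so a transcript above background cannot be claimed for it.

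In the list of regulators, 1 of 27 measured genes fell, S1pr2, none rose, and the median log2 difference was -0.01. The transcriptional repressor Bhlhe40 had 6.39, 5.82, 6.83, 4.64 and 3.92 in HMB rats, against 7.99, 6.91, 6.29, 7.65 and 6.95 in controls. HMB 2, HMB 4 and HMB 5 lay below all controls, and the difference of -1.64 ± 0.49 (SE, limma adjusted p = 0.0882) did not pass. Jun, a component of the AP-1 factor, had all HMB values (7.51 to 7.78) below all controls (7.84 to 8.87), a difference of -0.55 (adjusted p = 0.0916). Its other 2 probe sets stood at -0.53 each, and in both of them the groups overlapped.

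Of 17 other genes of bile acid synthesis and conjugation 0 passed, with a median of 0.09 and 12 above 0. Stard5, a cytosolic sterol carrier, had a log2 difference of -0.29 ± 0.08 (SE, limma adjusted p = 0.0721), with all HMB rats (8.82 to 9.11) below all controls (9.15 to 9.36). Its other 2 probe sets stood at -0.31 and -0.34, and in both of them the groups overlapped. Cyp46a1 and Cyp39a1, hydroxylases that act on cholesterol and on oxysterols, had all HMB rats above all controls, at differences of 0.34 (adjusted p = 0.0752) and 0.27 (adjusted p = 0.117). At the brightest probe set of each gene, the groups did not overlap in 5 of the 82 listed genes, namely S1pr2, Jun, Stard5, Cyp46a1 and Cyp39a1. That is 6.10% of them, near the 5.77% of all probe sets.

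Of 18 other FXR-responsive genes 0 passed, with a median of -0.000675 and 9 above 0. The 3 with the smallest p were Slc51a, a subunit of the basolateral bile acid exporter, at 0.29 (limma adjusted p = 0.141), Abcc2, a canalicular conjugate pump, at -0.23 (adjusted p = 0.239), and Vldlr, a lipoprotein receptor, at 0.15 (adjusted p = 0.407). The other 3 probe sets of Vldlr, all dimmer, stood at 0.22, -0.17 and -0.07, so its direction differed between probe sets, and none passed. Of 25 other transporters and canalicular genes 0 passed, with a median of -0.01 and 11 above 0. Abcc3, a basolateral efflux pump, had 5.89, 6.24, 6.01, 6.07 and 6.46 in HMB rats, against 5.89, 3.95, 5.93, 5.00 and 4.00 in controls. HMB 2 to HMB 5 lay above all controls, HMB 1 lay inside their range, and the controls themselves spread over 1.99 log2 units. The difference of 1.18 ± 0.36 (SE) did not pass (adjusted p = 0.0888), and without control 1 it did (1.41, adjusted p = 0.0384). In that setting 1653 of all probe sets passed, against 528 with all rats. Slc51a (0.38, limma adjusted p = 0.0403) and Cyp46a1 (0.39, adjusted p = 0.0419) passed there as well. Cldn2, a tight junction protein, stood at -0.36 (adjusted p = 0.122).

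**Figure D5:**
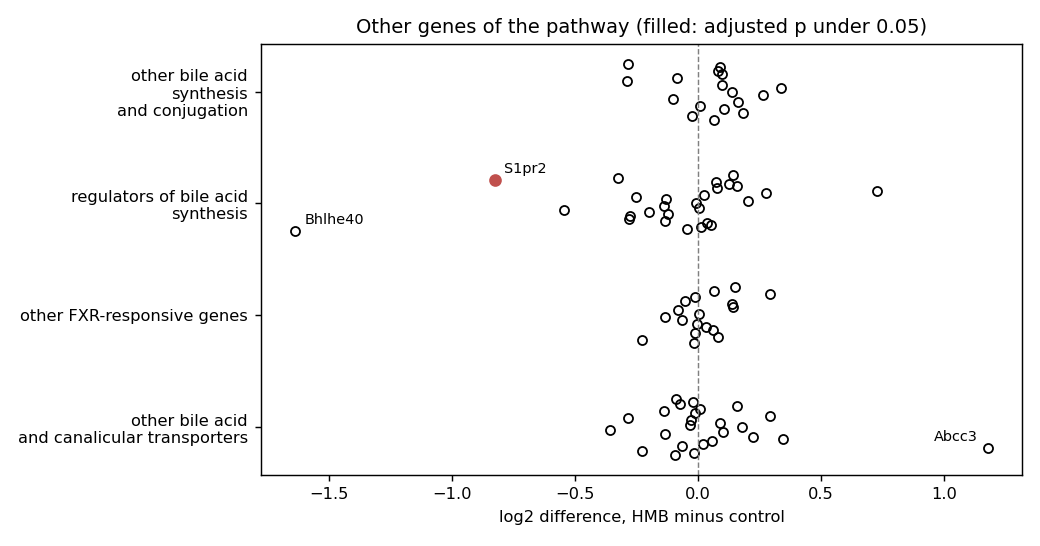
Log2 difference, HMB minus control, of every measured gene in the 4 lists (circles, 1 per gene, spread vertically within a list for legibility). S1pr2 is the filled point at -0.83. Bhlhe40 at -1.64 and Abcc3 at 1.18 lie further out and are open, since their adjusted p was above the threshold.

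Markers of cell types in and near liver did not pass in any of 8 lists (0 of 53 measured genes), where 1.70% of all probe sets passed. At that share, 0 of 53 tells little. Hepatocyte markers had a mean log2 signal of 13.36 to 13.45 in HMB rats and 13.39 to 13.45 in controls, the highest of the 8 lists. Bile duct markers averaged 4.80 to 4.99 in HMB rats and 4.67 to 5.33 in controls, with 6 of 9 below 0 and a median of -0.14. All 4 erythroid and all 5 small intestine markers were above 0, and all 6 of sinusoidal endothelium were below 0. Of 9 stellate cell markers 7 were below 0, and their differences ran from -1.27, the lowest in the 8 lists, to 0.26. The small intestine markers averaged only 3.17 to 3.34 in HMB rats and 2.86 to 3.26 in controls, so transcripts above background cannot be claimed for them. The median signal of the arrays was also higher in HMB rats (4.39 against 4.35), and its part in these directions was not tested. The groups did not overlap for 2 of the 53, Slc4a1 of the erythroid list (0.39, limma adjusted p = 0.0728) and Slc4a2 of the bile duct list (-0.34, adjusted p = 0.0805), which were named after their values were seen. That is 3.77% of the 53, against 5.77% of all probe sets. Medians were 0.35 for 4 erythroid markers, 0.17 for 5 of small intestine, 0.16 for 4 of kidney, 0.08 for 7 of macrophages, -0.12 for 6 of sinusoidal endothelium and -0.12 for 9 of stellate cells. The spread of log2 signals across each array (SD) averaged 2.40 ± 0.0261 in HMB rats and 2.47 ± 0.0236 in controls (exact permutation p = 0.00794, adjusted p = 0.0397 over 5 array measures). The poly-A control signal minus the hybridisation control signal was -1.73 ± 0.225 in HMB rats and -2.04 ± 0.106 in controls (exact permutation p = 0.0238, adjusted p = 0.0595).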

How the data were processed

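The authors deposited log2 signal values made with RMA, per the submitters' processing notes, whose version is not given in the sources used here. RMA adjusts background, normalizes between arrays and summarises the probes of a set to 1 value, which compresses differences at low signal. The log2 values of 31042 probe sets were used as deposited, with the 57 Affymetrix control probe sets kept for array measures (24 poly-A, 18 hybridisation). Groups came from the sample titles. Gene symbols came from the platform annotation (20826 probe sets with 1 symbol, 436 with several and 9780 with none), and list genes were matched by that symbol or its current RefSeq symbol, at their brightest probe set.

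Differences, HMB minus control, were tested with limma 3.58.1 in R 4.3.3 (lmFit, eBayes, 8 residual and 4.93 prior degrees of freedom), with Benjamini-Hochberg adjustment over all probe sets and a threshold of 0.05. The fit was tested on simulated data. Single genes were also compared by exact two-sided permutation, and correlations by 100000 permutations. The rats were treated as independent animals, though no label says how they were caged by group. The number of arrays limits the precision. The bile acid genes and the lists were chosen with earlier results of these data known. Named were all 10 genes and the 3 genes of smallest p in each list, and the 5 genes most like Cyp7a1 and Cyp8b1. Figures used matplotlib 3.10.9 in Python 3.11.15. The alternatives were other normalizations, a filter on low signal, other priors and weights, 1 probe set per gene, HMB 1 as a control, control signals as covariates, and left-out rats.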

Additional observations from a re-analysis of the deposited data

Results flagged for a closer look

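Of 44 groups of 5 rats examined (each named gene in each group), 1 held a rat that stood apart from the other 4, where chance marks about 1 in 20 groups. Control 4 had a Cyp7a1 log2 signal of 9.82, and the other 4 controls lay between 9.08 and 9.27. Without control 4 the Cyp7a1 log2 difference was 0.52 (limma adjusted p = 0.181).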

How the results depend on the processing

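No paired analysis was possible because the replicate numbers follow the order of deposition and pair no animals. The count of bile acid gene probe sets changed by HMB was 0 in 18 of 22 settings and 1 in the other 4, always Akr1d1 _s_at, with HMB 1 as a control, without HMB 1 and 2, and among single left-out rats (0 to 1). Among the 18, the setting with 1 probe set per gene left Akr1d1 _s_at out, so it could not be called there. All probe sets changed by HMB numbered 528, and 125 after cyclic loess, 106 after quantile normalization, 925 with array weights, 244 with 1 probe set per gene, 0 with the poly-A covariate (3806 at an unadjusted p under 0.05), 257 with the GAPDH covariate, 0 without HMB 3 to 5 (3276 at an unadjusted p under 0.05), 2094 without HMB 1 and 2, and 0 to 1653 with 1 rat left out (without control 1 the highest, and 0 without control 2, control 4, control 5 or HMB 4, by limma, with 5928 to 6558 at an unadjusted p under 0.05). Cyp7a1, Cyp8b1, Cyp27a1, Akr1d1 _s_at, Baat and Abcb11 kept the sign of their difference in all settings run. Signs changed for 5 probe sets, none of them called. Cyp7b1 was at -0.0160 with HMB 1 as a control, -0.0865 without HMB 1 and 2, and between -0.0451 and 0.321 with 1 rat left out. Akr1d1 _at was at -0.00669 with arrays at the same median, -0.00581 with the poly-A covariate and -0.0421 without HMB 3 to 5. In these settings Slc10a1 was at -0.00299, -0.00312 and -0.0244, and Nr1h4 at 0.00316 without HMB 3 to 5. Nr0b2 was at -0.0939 with HMB 1 as a control, -0.563 with the poly-A covariate, -0.0271 without HMB 3 to 5, and between -0.0673 and 0.568 with 1 rat left out (below 0 without control 1, control 5 or HMB 5). The causes were not tested. No detection calls or signals over background were used here, which limits Cyp7b1 most.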
